A study of Homo sapiens with 14 samples.

Results

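Transcript levels were followed for 10 genes of the beta-catenin system: beta-catenin (CTNNB1) and its close relative plakoglobin (JUP), 5 genes of the machinery that degrades beta-catenin (APC, AXIN1, GSK3B, CSNK1A1 and BTRC), and 3 genes of the cell junction in which beta-catenin sits (CDH1, CTNNA1 and CTNND1). They were chosen by symbol, 10 of the 59250 gene symbols counted, and each of the 10 passed the filter on low counts in every test. RNA was measured in NUGC4, a gastric cancer line, and in HepG2, a liver cancer line. NUGC4 groups were unmodified wild-type cells (4 libraries), single-cell clones edited with CRISPR-Cas9 against ARID1A (2 libraries by name), CRISPR interference (CRISPRi) cells with the guide sgRNA1 against ARID1A (2 libraries), and their CRISPRi vector control (1 library, since replicate 2 of the vector group in the labels was not analysed here). ARID1A is a DNA-binding subunit of BAF, a complex that moves nucleosomes. HepG2 groups were vector controls (vec, 2 libraries) and cells infected with a lentivirus (2 libraries) that expresses FLAG-tagged CTNNB1 without exon 3, joined to GFP, from the EF1α promoter. The virus was used at a low multiplicity of infection, and the labels do not say that infected cells were sorted, so a level is an average over the culture and cannot tell more cells with a transcript from more transcript per cell.

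Beta-catenin has a structural and a signalling pool. At the plasma membrane it, or plakoglobin, binds the tail of E-cadherin (CDH1) and links it through alpha-catenin (CTNNA1) to actin, while p120-catenin (CTNND1) binds the cadherin next to it and keeps it at the surface. In the cytoplasm, APC and AXIN1 hold free beta-catenin for casein kinase 1 alpha (CSNK1A1) and GSK3 beta (GSK3B), which phosphorylate its amino-terminal part, and the F-box protein beta-TrCP (BTRC) then marks it for the proteasome. Wnt signals stop this phosphorylation, and beta-catenin that escapes it enters the nucleus and activates genes with TCF and LEF factors. Deletions or point mutations in exon 3 that remove the phosphorylated residues are common in liver cancer, and HepG2 itself is known to carry a CTNNB1 allele that lacks exon 3 sequence.

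The sequence left out of the expressed cDNA shows what such a deletion takes away. Exon 3 of CTNNB1 lies on chromosome 3 of GRCh38, chr3:41224526-41224753 on the plus strand, in GENCODE release 29 (transcript ENST00000396183.7). It is 228 bases long, which is 76 codons' worth, so its removal keeps the reading frame. The capitals mark codons 33, 37, 41 and 45, counted with the start codon as 1: GSK3 phosphorylates the residues of codons 33, 37 and 41, and casein kinase 1 alpha that of codon 45.
CTNNB1 exon 3: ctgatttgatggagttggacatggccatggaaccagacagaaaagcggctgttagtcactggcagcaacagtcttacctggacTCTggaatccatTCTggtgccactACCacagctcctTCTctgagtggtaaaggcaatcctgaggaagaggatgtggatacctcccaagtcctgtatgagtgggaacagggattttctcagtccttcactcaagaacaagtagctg
All 4 codons fall within this stretch, which makes up 9.73% of the 2343 coding bases. Counts per gene add reads of the transgene and of the cell's own CTNNB1 copies, so the values below do not separate them.

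Library totals were 9167761 to 17668394 counts for NUGC4 and 13138681 to 23914120 counts for HepG2. The library labelled knockout replicate 2 went against its label: ARID1A stood there at 134 CPM (counts scaled to the TMM-adjusted size of the library), against 102 to 118 CPM in wild type, 131 CPM in the vector library, 33.7 CPM in knockout replicate 1 and 57.7 and 54.4 CPM under sgRNA1. It also carried ZNF10, a source of repressor domains for CRISPRi, at 19.0 CPM, as did the vector library at 21.9 CPM, whereas the sgRNA1 libraries carried none or 0.06 CPM of it and instead 26.2 and 28.7 CPM of ZIM3, another such source. Over genes, its counts differed from those of the vector library by a chi-square of 2.57 per degree of freedom and from those of knockout replicate 1 by 278. Which sample this library holds was not tested. Knockout values below are therefore those of replicate 1, followed by values with the other library. Ribosomal RNA genes took 6.30% to 11.7% of the counts in the wild-type and knockout replicate 1 libraries and 0.161% to 0.176% in the other 4 NUGC4 libraries, so that knockout replicate 1 against wild type and sgRNA1 against vector each lay within one kind of library, and vector against wild type did not. HepG2 held 8 of 8 hepatocyte markers at 5 CPM or more. NUGC4 held 6 of 10 digestive epithelial markers at that level, with CDX1 and TFF2 at 0, and the summed level of the 10 ran from 4298 to 4793 CPM in wild type, 8851 CPM in the vector library and 12462 to 13048 CPM under sgRNA1. Endothelial markers summed to at most 3.48 CPM in any library. Whether a group's libraries are separate cultures is not stated in the labels, and a p-value here speaks for these libraries alone, whose spread may be technical.

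The order of the 10 transcripts differed between the lines. Per kilobase of exon, wild-type NUGC4 cells held JUP highest, at 314 ± 29.1 CPM per kb (mean ± SD, n = 4), ahead of CTNNB1 at 200 ± 3.63, CTNNA1 at 75.2 ± 1.52, CDH1 at 48.0 ± 2.07 and CTNND1 at 39.5 ± 1.60. The degradation genes followed, with CSNK1A1 at 23.9 ± 2.17 CPM per kb, GSK3B at 15.9 ± 1.30, AXIN1 at 11.1 ± 1.27, APC at 3.09 ± 0.26 and BTRC at 2.15 ± 0.29. The library ranges of neighbours in this order did not overlap. In HepG2 vector cells the order opened with CTNNB1 at 127 ± 0.33 CPM per kb (n = 2) and CTNNA1 at 108 ± 0.05, while CDH1 came 9th of the 10 at 6.12 ± 0.16. There the ranges of AXIN1 and JUP overlapped, as did those of CTNND1 and CSNK1A1 and those of BTRC and GSK3B. Per kilobase of coding sequence, JUP and CTNNB1 still led in NUGC4, and CSNK1A1, whose transcript has long untranslated ends, moved from 6th to 3rd place in both lines.

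Between the control cells of the lines, 9 of the 10 genes differed (edgeR, adjusted p under 0.05), where 85% of the 21074 genes tested did (40.4% higher and 44.5% lower in HepG2). The widest gaps were at the junction. JUP (chromosome 17, 41754604 to 41786931) stood at 1159, 1243, 1236 and 1011 CPM in the wild-type NUGC4 libraries and at 133 and 130 CPM in the HepG2 vector libraries, 8.87-fold lower (log2 difference -3.15 ± 0.10 SE, adjusted p = 5.26e-18). CDH1 (chromosome 16, 68737225 to 68835548) stood at 241, 234, 242 and 220 CPM against 29.4 and 30.5 CPM, 7.84-fold lower in HepG2 (-2.97 ± 0.09, adjusted p = 7.68e-19). HepG2 thus held far less of the cadherin and of plakoglobin, and a good deal of the other 3 catenin transcripts: CTNNB1 differed by -0.65 ± 0.07 and CTNND1 by -0.59 ± 0.07 on the log2 scale, and CTNNA1 was higher in HepG2 by 0.52 ± 0.07. Within the degradation machinery the scaffolds went opposite ways, APC being lower in HepG2 by -1.79 ± 0.17 and AXIN1 higher by 1.68 ± 0.09. BTRC was 3.49-fold higher in HepG2 (1.80 ± 0.11) and GSK3B lower (-1.19 ± 0.10). CSNK1A1 did not differ beyond the spread (0.07 ± 0.09, adjusted p = 0.479), and its sign turned under other settings. The lines differ in origin and each is 1 source. Library kind differs as well: ribosomal RNA genes took 0.251% and 0.241% of counts in the HepG2 vector libraries. The NUGC4 CRISPRi vector library, at 0.165%, was nearer to that share than wild type. It held 1496 CPM of JUP, 289 of CDH1, 521 of CTNNB1, 365 of CTNNA1 and 313 of CTNND1. HepG2 vector libraries held 440 and 442 CPM of CTNNB1, 424 and 424 of CTNNA1, and 164 and 167 of CTNND1. For these 3 catenins the size of the gap thus depended on the NUGC4 control. The parts of library kind and of the CRISPRi construct were not tested.

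**Figure D1:**
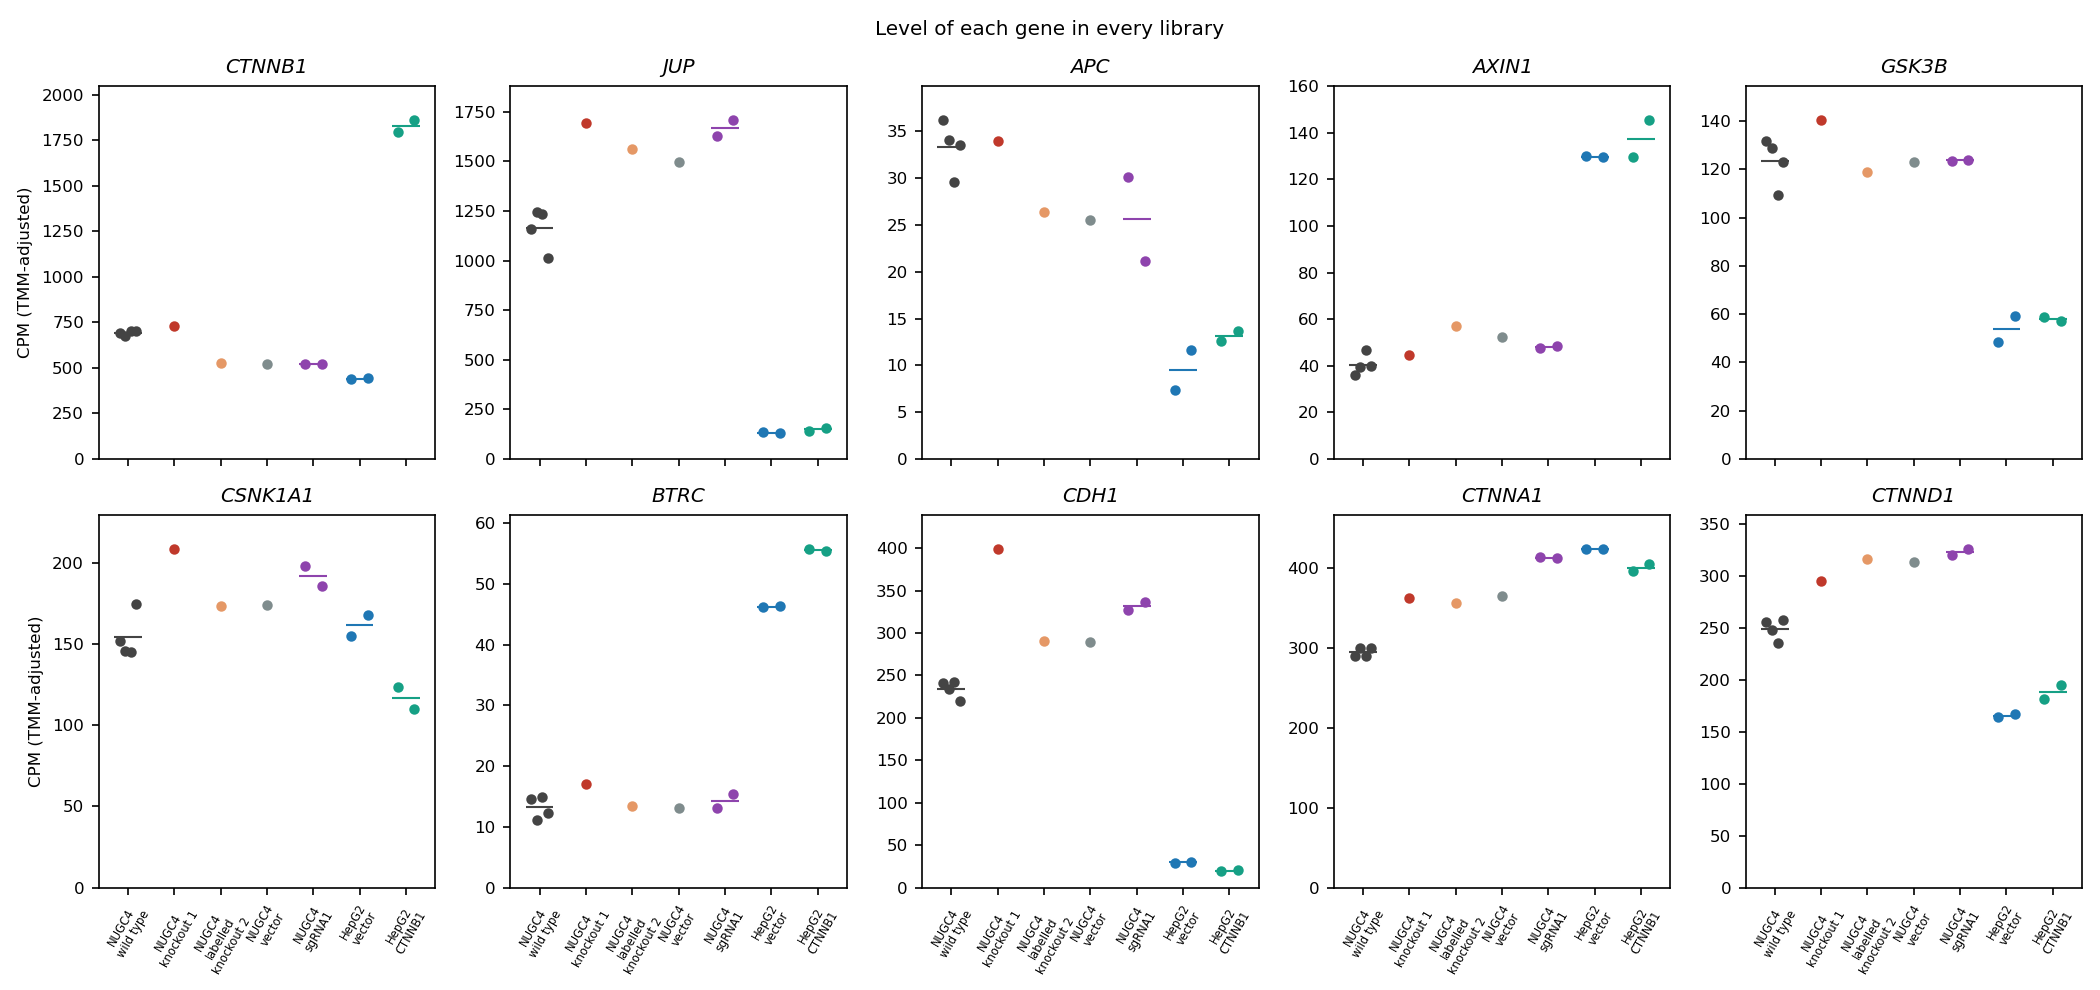
Level of each gene in CPM (TMM-adjusted; vertical axes start at 0) in every library, 1 point a library, with a line at the mean of each group that has at least 2 libraries. JUP and CDH1 stand near the floor of their panels in all 4 HepG2 libraries, CTNNB1 is highest in the 2 HepG2 libraries with the transgene (1795 and 1863 CPM), and the NUGC4 vector and sgRNA1 libraries lie below wild type for CTNNB1.

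HepG2 cells given CTNNB1 without exon 3 carried 4.06-fold more CTNNB1 transcript than vector cells. CTNNB1 (chromosome 3, 41194741 to 41260096) stood at 440 and 442 CPM in the vector libraries and at 1795 and 1863 CPM with the transgene. The groups were far apart, and within each the libraries were close. The log2 fold change was 2.02 ± 0.06 (adjusted p = 1.18e-18, edgeR), the smallest p among the 15703 genes tested, and ranked 64th of them in size. ULK4, which overlaps CTNNB1 on the opposite strand, held at most 2.43% as many counts as CTNNB1 in any library, and its own level did not pass the test (-0.14 ± 0.14, adjusted p = 0.530).

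Among the 10 genes, 3 were higher and 2 lower with the transgene, where 24.2% of all genes tested were called, 12.8% higher and 11.4% lower. CTNNB1 itself is 1 of the 3 higher genes, and the median of the 10 was 0.11 against 0.00 over all genes. Of the kinases, casein kinase 1 alpha (CSNK1A1, chromosome 5, 149492197 to 149551552) fell: it stood at 155 and 168 CPM in the vector libraries and at 124 and 110 CPM with the transgene, a log2 fold change of -0.50 ± 0.07 (adjusted p = 3.61e-06). The groups did not overlap. GSK3B, the other kinase, read 48.6 and 59.1 CPM against 58.7 and 57.1 CPM, with overlapping groups (0.07 ± 0.08, adjusted p = 0.597). Of the scaffolds, AXIN1 did not pass the test (0.06 ± 0.06, adjusted p = 0.583).

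APC and BTRC rose by small amounts. The amount for APC depended on single libraries, and so did the calls of both genes. APC (chromosome 5, 112707498 to 112846239), the least abundant of the 10 in HepG2, stood at 7.32 and 11.7 CPM in the vector libraries and 12.6 and 13.7 CPM with the transgene. Its log2 fold change was 0.40 ± 0.15 (adjusted p = 0.0459), and it was 0.16 (adjusted p = 0.571) without vector replicate 1 and 0.79 without vector replicate 2. Without overexpression replicate 2 the adjusted p of APC was 0.0699. BTRC (chromosome 10, 101354033 to 101557321) stood at 46.2 and 46.3 CPM against 55.8 and 55.4 CPM, a change of 0.24 ± 0.08 (adjusted p = 0.0229). Its groups were narrow and apart, yet its adjusted p was 0.107 without vector replicate 1, 0.208 without vector replicate 2 and 0.0887 without overexpression replicate 1. Neither gene passed DESeq2's Wald test (adjusted p = 0.191 for APC and 0.109 for BTRC).

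At the junction, E-cadherin fell in HepG2 while its partners did not pass the test. CDH1 stood at 29.4 and 30.5 CPM in the vector libraries and at 19.1 and 20.2 CPM with the transgene, 1.55-fold lower (log2 fold change -0.64 ± 0.09, adjusted p = 1.26e-05). The groups were apart, from a starting level that was already low beside NUGC4. JUP read 133 and 130 CPM against 139 and 157 CPM (0.14 ± 0.07, adjusted p = 0.111), and passed when overexpression replicate 1 was left out (0.21, adjusted p = 0.0286). CTNNA1 (chromosome 5, 138610967 to 138935034) gave -0.11 ± 0.06 (adjusted p = 0.161). CTNND1 (chromosome 11, 57753243 to 57819546) gave 0.15 ± 0.06 (adjusted p = 0.0622). A read-through row that joins TMX2 to CTNND1 held 0.968 to 1.07 times the CTNND1 count in every library, so the CTNND1 row cannot be told apart from it. The summed level of the 8 hepatocyte markers moved with the transgene, from 32792 to 34010 CPM in the vector libraries to 51514 to 53470 CPM. The summed level of the 10 digestive epithelial markers was lower with the transgene, at 1785 to 1931 CPM against 2480 to 2623 CPM, with 4 of the 10 at 5 CPM or more in both groups and CDX1, TFF1, TFF2, MUC1 and CLDN18 at 0. The part of either sum in these changes was not tested.

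In NUGC4, knockout replicate 1 held more CDH1, JUP, CSNK1A1 and CTNNA1 than wild type, while CTNNB1 was not called. These 4 of the 10 genes were called higher and none lower, where 38.2% of the 18913 genes tested were called, 19.5% higher and 18.7% lower. The median of the 10 was 0.24, against -0.07 over all genes. The knockout is here a single library of a single-cell clone, whose spread is taken from the groups with replicates. CTNNB1 stood at 693, 675, 702 and 702 CPM in wild type and 732 CPM in the knockout (log2 fold change 0.05 ± 0.10, adjusted p = 0.738).

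CDH1 showed the largest change of the 10. It stood at 220 to 242 CPM in wild type, as above, and at 399 CPM in knockout replicate 1, 1.67-fold higher (0.74 ± 0.10, adjusted p = 1.15e-05, edgeR). JUP was at 1696 CPM, above each wild-type library (0.52 ± 0.11, adjusted p = 0.00141). CSNK1A1 was at 209 CPM against 152, 146, 145 and 175 CPM (0.41 ± 0.12, adjusted p = 0.0100), again above the wild-type range. CTNNA1 was at 362 CPM against 290, 300, 290 and 299 CPM (0.27 ± 0.10, adjusted p = 0.0417). That last call was lost, with adjusted p from 0.0731 to 0.0780, when wild-type replicate 1 or 2 or either sgRNA1 library was left out. APC, AXIN1, GSK3B, BTRC and CTNND1 did not pass, with log2 fold changes from -0.01 (APC) to 0.34 ± 0.19 (BTRC, adjusted p = 0.172).

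With the library labelled knockout replicate 2 counted in the knockout, 1 of the 10 genes was called, where 23.2% of genes were called, 13.5% higher and 9.78% lower: CDH1 (0.53 ± 0.14, adjusted p = 0.0250). JUP then had an adjusted p of 0.0511, and the sign of CTNNB1 turned (-0.16). That library held 529 CPM of CTNNB1, 1562 CPM of JUP and 291 CPM of CDH1, each near the vector library's 521, 1496 and 289 CPM. Set alone against wild type, it gave -0.42 for CTNNB1 (adjusted p = 0.00343), and higher JUP (0.40), AXIN1 (0.47), CDH1 (0.28) and CTNND1 (0.31), where 46.7% of genes were called, 23.8% higher and 23% lower.

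ARID1A fell by 1.24 ± 0.12 on the log2 scale with sgRNA1 (adjusted p = 3.30e-06), and none of the 10 genes was called, where 8.73% of genes were called, 4.62% higher and 4.11% lower. At an unadjusted p under 0.05 the count was also 0, and DESeq2 and limma-voom called 0. CTNNB1 read 521 CPM with the vector and 518 and 520 CPM with sgRNA1 (-0.02 ± 0.11, adjusted p = 0.968). JUP read 1496 CPM against 1630 and 1710 CPM (0.15 ± 0.13, adjusted p = 0.571). CDH1 read 289 CPM against 327 and 336 CPM (0.18 ± 0.11, adjusted p = 0.387) and CTNNA1 365 CPM against 413 and 413 CPM (0.17 ± 0.11, adjusted p = 0.430). The sgRNA1 libraries lay above the vector library for these 3 genes, and none of the 3 passed the test. Against a single control library such a position says little: the sgRNA1 libraries also lay above it for GSK3B, at a log2 fold change of -0.002. The control is a single library, and the vector and sgRNA1 libraries carried different repressor source transcripts (ZNF10 and ZIM3), whose part in these values was not tested.

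The knockout and CRISPRi effects were compared by their difference, in which 9.02% of genes were called, 5% higher in the knockout and 4.02% lower. CDH1 was the only one of the 10 called: its rise was larger in knockout replicate 1 by 0.55 ± 0.15 on the log2 scale (adjusted p = 0.0277, edgeR). The call was lost without wild-type replicate 2 (adjusted p = 0.0698), without sgRNA1 replicate 1 (0.127) or without sgRNA1 replicate 2 (0.0829). With the library labelled knockout replicate 2 included, the difference was 0.35 (adjusted p = 0.649). JUP differed by 0.37 ± 0.17 (adjusted p = 0.204) and CTNNB1 by 0.06 ± 0.15 (adjusted p = 0.855).

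The control cells of NUGC4 were not alike in these genes. In the vector library 6 of the 10 differed from wild type, where 44.2% of genes were called, 23.5% higher and 20.7% lower. CTNNB1 was lower (-0.42 ± 0.11, adjusted p = 0.00351), at 521 CPM against 675 to 702 CPM. JUP (0.36 ± 0.11), AXIN1 (0.36 ± 0.14), CDH1 (0.29 ± 0.10), CTNNA1 (0.30 ± 0.10) and CTNND1 (0.32 ± 0.10) were higher, with adjusted p from 0.0170 to 0.0368. AXIN1 lost its call without wild-type replicate 1 (adjusted p = 0.0776), wild-type replicate 2 (0.0749), sgRNA1 replicate 1 (0.0610) or sgRNA1 replicate 2 (0.0628), and CDH1 without wild-type replicate 2 (0.0574) or sgRNA1 replicate 2 (0.0508). APC, at -0.40 ± 0.18 (adjusted p = 0.0732), passed without wild-type replicate 3 (0.0199) or sgRNA1 replicate 2 (0.0499), and also with DESeq2 size factors (0.0487) and with only the compared groups (0.0389), 2 settings under which CDH1 did not (0.0512 and 0.0582). AXIN1 did not pass under these 2 settings either, nor with DESeq2's Wald test. CTNNA1 did not pass with only the compared groups. The CRISPRi construct and the share of ribosomal RNA both change between vector and wild type and cannot be told apart. For CDH1, the vector library stood 1.23-fold above wild type with ARID1A present (131 CPM), a value to set beside the 1.67-fold of knockout replicate 1. These comparisons share the wild-type libraries.

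**Figure D2:**
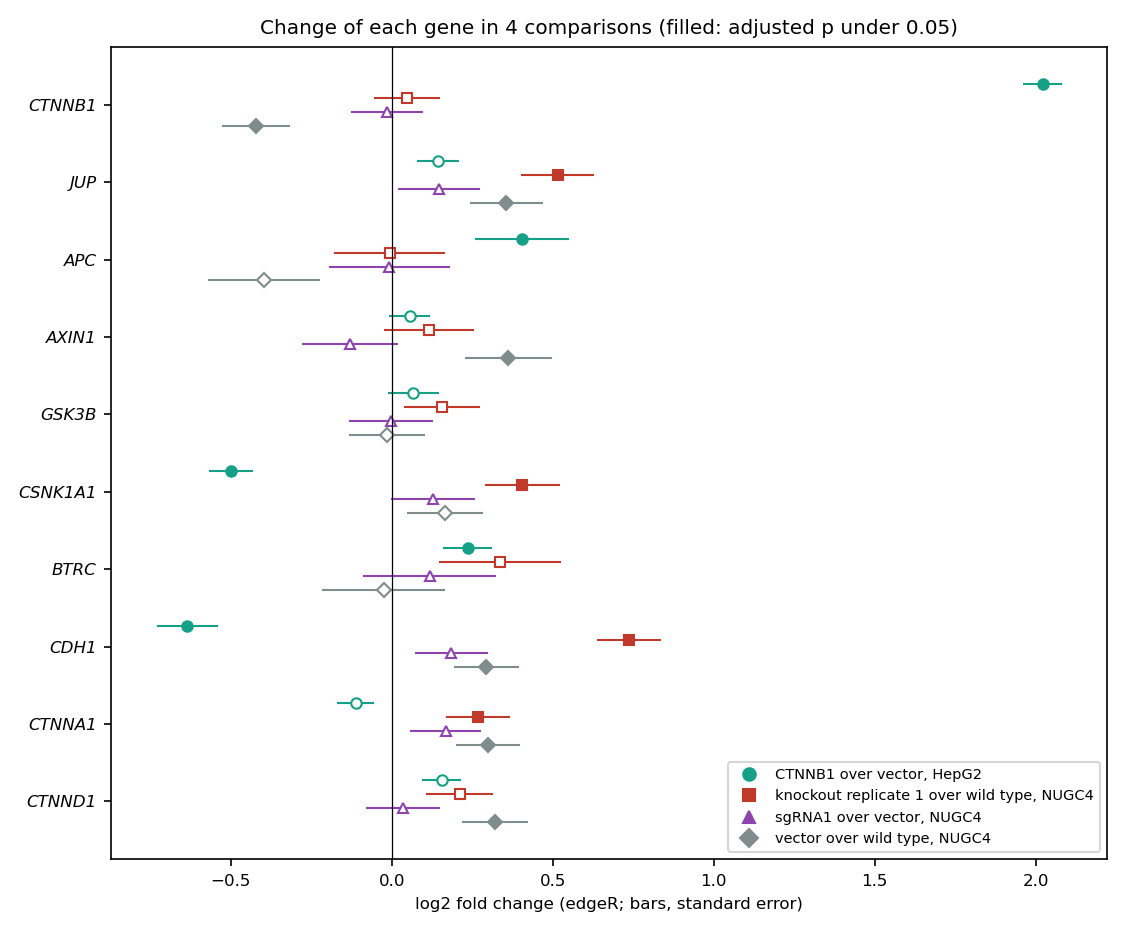
Log2 fold change of each gene (horizontal axis, edgeR, with its standard error) in CTNNB1 overexpression against vector in HepG2 and, in NUGC4, in knockout replicate 1 against wild type, sgRNA1 against vector and vector against wild type; filled marks have an adjusted p under 0.05. CDH1 lies at -0.64 in HepG2 with the transgene and at 0.74 in knockout replicate 1, no sgRNA1 mark is filled, and CTNNB1 lies at -0.42 for the vector cells against wild type.

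The balance of transcripts within a library shifted along with these levels. Per kilobase of exon, JUP stood at 1.35 to 1.72 times CTNNB1 in wild-type NUGC4, 2.17 in knockout replicate 1, 2.69 in the vector library and 2.95 to 3.08 under sgRNA1. In HepG2 it was 0.275 to 0.282 in vector cells and 0.0723 to 0.0790 with the transgene. Plakoglobin was thus the more abundant transcript in every NUGC4 library and the less abundant in every HepG2 library. CTNNA1 stood at 0.366 to 0.394 times CTNNB1 in wild-type NUGC4, at 0.439 in knockout replicate 1, at 0.621 in the vector library and at 0.703 to 0.706 under sgRNA1, and at 0.850 to 0.854 in HepG2 vector cells. With the transgene this ratio was 0.193 to 0.195, below every other library. The sum of CTNNB1 and JUP, the proteins that compete for the same part of the cadherin tail, was 10.40 to 11.05 times CDH1 in wild-type NUGC4, 8.18 in knockout replicate 1, 9.35 in the vector library, 8.81 to 8.88 under sgRNA1, 26.0 to 27.1 in HepG2 vector cells and 140 to 142 with the transgene. The lengths used for CTNNB1 are those of annotated transcripts, with exon 3 and, for exons, untranslated ends, so they need not fit the transgene. Per kilobase of coding sequence, JUP stood at 0.308 to 0.316 times CTNNB1 in HepG2 vector cells and 0.0809 to 0.0884 with the transgene. The sum of CTNNB1 and JUP was then 21.4 to 22.3 and 113 to 115 times CDH1. These are ratios of transcripts, not of proteins, and no test was made of them.

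**Figure D3:**
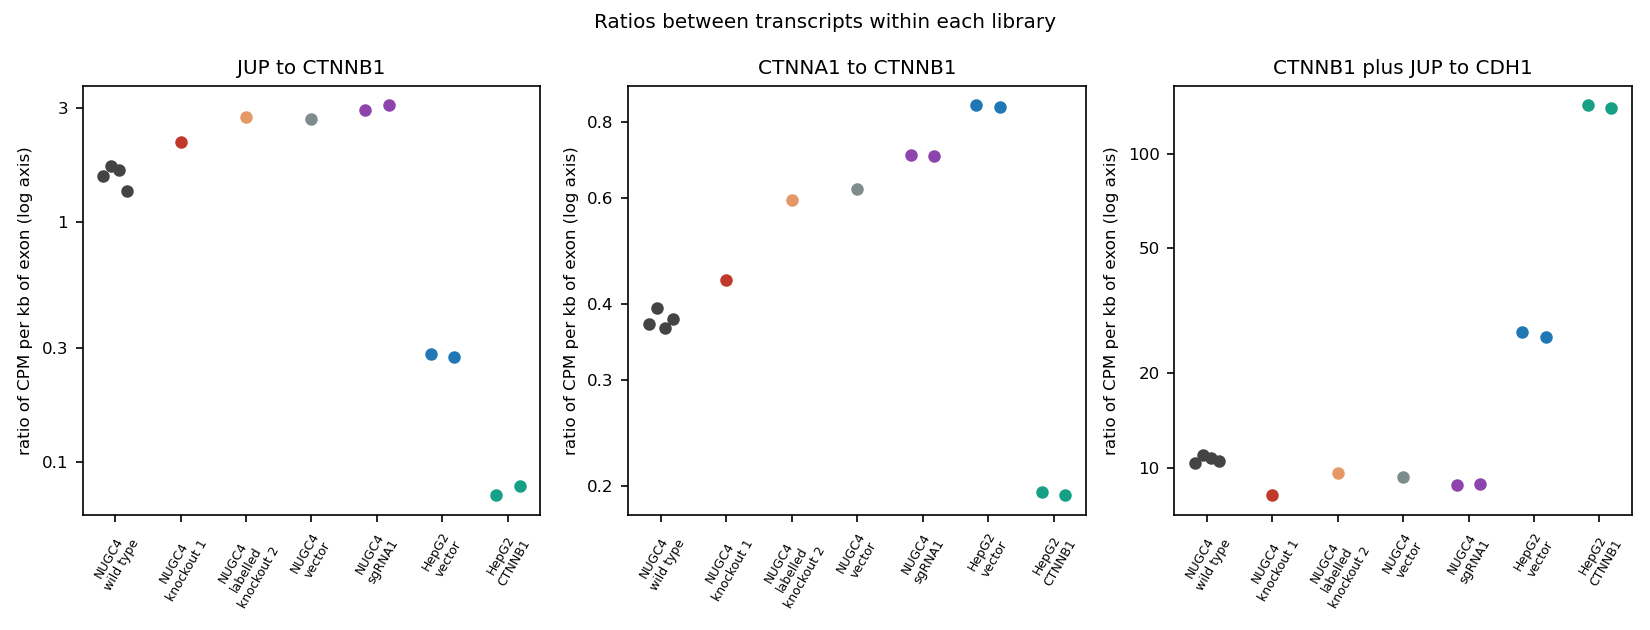
Ratios between transcripts within each library, as CPM per kilobase of exon, on log axes, 1 point a library. In HepG2 with the transgene JUP stood at 0.0723 to 0.0790 times CTNNB1, CTNNA1 at 0.193 to 0.195 times CTNNB1, and the sum of CTNNB1 and JUP at 140 to 142 times CDH1.

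Transcripts that the pathway is known to induce mostly fell in HepG2 with the transgene. Of 29 such genes listed, 21 were tested, 1 rose and 12 fell, where 12.8% of all genes were called higher and 11.4% lower. The median log2 fold change was -0.21 against 0.00 over all genes. TDGF1, a co-receptor of Nodal, stood at 34.4 and 37.6 CPM in the vector libraries and at 13.3 and 14.6 CPM with the transgene (-1.40 ± 0.10, adjusted p = 2.69e-11, edgeR). BMP4 (-0.58 ± 0.06), NOTUM, which removes the lipid of Wnt proteins (-0.41 ± 0.06), the stem cell receptor LGR5 (-0.43 ± 0.08) and NKD1, a feedback inhibitor of the pathway (-0.30 ± 0.06), fell as well. In the fit of all libraries of both lines the calls of LGR5 (adjusted p = 0.0571) and NKD1 (0.161) were lost. AXIN2, the most widely used reporter transcript of the pathway, read 126 and 118 CPM against 103 and 117 CPM (-0.17 ± 0.07, adjusted p = 0.0656), and passed when overexpression replicate 2 was left out (-0.25, adjusted p = 0.0107). The gene that rose was glutamine synthetase (GLUL), a marker of beta-catenin activity in liver, at 384 and 372 CPM against 425 and 456 CPM (0.19 ± 0.06, adjusted p = 0.0189). That call was lost without vector replicate 1 (adjusted p = 0.0711), vector replicate 2 (0.308) or overexpression replicate 2 (0.119). LEF1, at most 0.55 CPM in HepG2, was too low to test.

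In the other gene lists of HepG2 the counts of called genes are to be read against 12.8% of all genes higher and 11.4% lower with the transgene. Of 23 other degradation genes tested, 4 rose and none fell, a share of risers near that background. They were AMER1, a membrane adaptor of APC (0.58 ± 0.11), the deubiquitinase USP9X (0.30 ± 0.07), the kinase CSNK1G1 (0.38 ± 0.10) and the tankyrase TNKS2 (0.22 ± 0.07). Single libraries decided 3 of these calls: the adjusted p was 0.0742 for USP9X and 0.403 for TNKS2 without vector replicate 1, 0.0628 for CSNK1G1 without vector replicate 2, and 0.170 for TNKS2 without overexpression replicate 1. Of 20 genes of Wnt reception, 1 rose and 5 fell, and the R-spondin receptors split: LGR4 rose from 72.6 and 80.4 CPM to 124 and 119 CPM (0.64 ± 0.07), while LGR5 fell. Of 19 nuclear partners 5 fell, among them the co-repressor component TBL1X (-0.39 ± 0.06), and 1 rose, the acetyltransferase gene EP300 (0.17 ± 0.06), whose adjusted p was 0.0565 to 0.260 when any HepG2 library was left out. Of 21 adherens junction genes 5 rose, led by NECTIN4 (0.74 ± 0.11), and 3 fell, led by the LIM protein AJUBA (-0.58 ± 0.06). Of 8 desmosome genes envoplakin (EVPL) fell by 0.51 ± 0.07, and desmoplakin (DSP) rose by 0.19 ± 0.06, a call lost without either vector library (adjusted p = 0.188 and 0.126) or without overexpression replicate 1 (0.147).

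In knockout replicate 1 most adherens junction genes were higher. Counts of called junction genes are to be read against 19.5% of all genes higher and 18.7% lower. Of 21 adherens junction genes tested 13 rose and 2 fell, with a median log2 fold change of 0.68 against -0.07 over all genes. A rise was not particular to the knockout. In the vector library, with ARID1A present, 9 of the 21 were higher than wild type and 3 lower (median 0.24). There, 23.5% of all genes were higher and 20.7% lower. The nectin NECTIN2 stood at 80.5, 89.4, 94.2 and 74.9 CPM in wild type and 268 CPM in the knockout (1.63 ± 0.11, adjusted p = 1.96e-09). Afadin (AFDN), which binds nectins to actin, rose by 1.18 ± 0.10, P-cadherin (CDH3) by 2.66 ± 0.26 and vinculin (VCL), which binds alpha-catenin under tension, by 0.79 ± 0.10. Of 8 desmosome genes 5 rose and 2 fell: desmoplakin rose (DSP, 0.76 ± 0.10), and plakophilin 2 (PKP2) fell by 1.54 ± 0.15. With the library labelled knockout replicate 2 included, 9 adherens junction genes were higher and 1 lower, and 1 desmosome gene was higher and none lower. Of all genes, 13.5% were then higher and 9.78% lower. The sum of the digestive epithelial markers was higher beside them, at 9395 to 9415 CPM in the libraries named knockout against 4298 to 4793 CPM in wild type, and its part in these changes was not tested.

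Within the pathway the counts for the knockout library are to be read against 19.5% of all genes higher and 18.7% lower, 38.2% in all, and those of the degradation and reception lists were near that share. Of 23 other degradation genes 7 rose, among them PPP2CB, a catalytic subunit of the phosphatase PP2A (0.76 ± 0.13), and FBXW11, the close relative of BTRC (0.55 ± 0.12). The gene that fell was APC2, the relative of APC, from 2.50 to 3.83 CPM in wild type to 0.445 CPM (-2.83 ± 0.53). Of 22 genes of Wnt reception 5 rose and 4 fell. LGR5 fell from 60.4, 61.4, 47.1 and 59.4 CPM to 5.48 CPM (-3.41 ± 0.23, adjusted p = 2.21e-09), LGR4 fell by 1.23 ± 0.12, and the receptor FZD4 rose from 2.55 to 5.38 CPM to 22.5 CPM (2.63 ± 0.25). Of 20 nuclear partners 9 rose, with TLE1 (1.00 ± 0.11) and BCL9L (0.86 ± 0.14) among them, and TLE3 fell (-0.51 ± 0.14). Of 27 induced transcripts 8 rose and 8 fell, with a median of -0.36. BAMBI (1.98 ± 0.15), CCND1 (0.81 ± 0.10) and NKD1 (0.75 ± 0.25, adjusted p = 0.0243) rose and MYC fell (-0.64 ± 0.12). NKD1 lost its call with DESeq2's Wald test (adjusted p = 0.0650) and with the library labelled knockout replicate 2 included (0.0876). AXIN2 (-0.36 ± 0.20, adjusted p = 0.169) and LEF1 (-0.56 ± 0.26, adjusted p = 0.102) did not pass. LEF1 passed without wild-type replicate 3 (-0.69, adjusted p = 0.0192). With the library labelled knockout replicate 2 included, 3 induced transcripts were higher and none lower, and their median was 0.25 in place of -0.36. Such rises were not all particular to the knockout. With the vector, where ARID1A was present, the median against wild type was 0.33 for nuclear partners and 0.27 for induced transcripts. Nuclear partners had a median of 0.17 in knockout replicate 1. From wild type (mean) to vector to knockout, BCL9L read 187, 307 and 347 CPM, and CCND1 243, 359 and 436 CPM. TLE1 read 61.6, 76.4 and 126 CPM, BAMBI 9.65, 12.3 and 38.8 CPM, and NKD1 6.12, 8.73 and 10.6 CPM.

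Under sgRNA1, AXIN2 and LGR5 fell and BAMBI rose. Counts of called genes under sgRNA1 are to be read against 4.62% of all genes higher and 4.11% lower, 8.73% in all. Of 27 induced transcripts 1 rose and 4 fell, with a median of -0.35 against 0.00 over all genes. AXIN2 was at 13.8 CPM with the vector and at 5.77 and 6.45 CPM with sgRNA1 (-1.18 ± 0.22, adjusted p = 0.00151, edgeR), and LGR5 at 44.7 CPM against 13.5 and 18.02 CPM (-1.51 ± 0.18, adjusted p = 2.05e-05). BAMBI, a decoy receptor of the TGF-beta family, stood at 12.3 CPM against 31.2 and 32.5 CPM (1.36 ± 0.18, adjusted p = 6.03e-05). NOTUM (-0.75 ± 0.22) and MYC (-0.43 ± 0.12) were the others that fell, and NKD1 (-0.65 ± 0.28, adjusted p = 0.176) and LEF1 (-0.01 ± 0.24) did not pass. Of 21 adherens junction genes 6 rose and none fell: the polarity protein gene PARD3 (1.03 ± 0.12), VCL (0.72 ± 0.12) and PKP4 (0.69 ± 0.13) led them. Of 8 desmosome genes EVPL (0.60 ± 0.14) and DSP (0.42 ± 0.12) rose and PKP2 fell (-0.60 ± 0.13). Of 23 degradation genes PPP2CB rose (0.52 ± 0.15) and AXIN2 fell, and of 20 nuclear partners TBL1X rose (0.62 ± 0.17). Both of these counts were near the shares over all genes. None of 22 reception genes rose, and LGR5, FZD5 (-0.54 ± 0.13) and FRAT2 (-0.73 ± 0.20) fell. DESeq2's Wald test called neither FRAT2 nor NOTUM. NKD1 was called lower with the replicate number as a block (-0.82) and with only the compared groups (-0.66). The calls of NOTUM, MYC, EVPL, DSP, PPP2CB, TBL1X, FZD5 and FRAT2 were lost without sgRNA1 replicate 1, at adjusted p from 0.0583 (EVPL) to 0.244 (DSP), and without sgRNA1 replicate 2, at 0.0738 (EVPL) to 0.235 (FRAT2); that of PKP2 was lost without sgRNA1 replicate 2 (0.109). Without wild-type replicate 2, NOTUM, MYC, DSP, PPP2CB, TBL1X and FRAT2 had adjusted p from 0.0519 to 0.0735. If the NUGC4 fit also took in the library labelled knockout replicate 2, which adds its distance from replicate 1 to the shared spread, edgeR called 0 of all genes under sgRNA1.

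The genes whose pattern was most like that of CTNNB1 were sought over the 13 libraries, by the root mean square difference of log2 CPM after each gene was centred on its own mean, among 21458 genes. The nearest were ZNF774 (0.379), POLH (0.396), AOC3 (0.410), ZFX (0.423) and SLC26A1 (0.430), where the spread of CTNNB1 itself on this measure was 0.647. Each was higher in HepG2 with the transgene than in vector cells: POLH stood at 70.7 against 43.1 CPM on average and ZFX at 70.2 against 33.7 CPM. Choosing genes by likeness to CTNNB1 in these same libraries favours such a rise, so it is not a separate result. The 13 libraries include the one labelled knockout replicate 2. None of the other 9 genes was among the nearest 5.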

How the data were processed

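The authors deposited 1 table of whole-number read counts per gene symbol. The submitters' processing notes name STAR 2.7.10a and hg38. Which counter, annotation and strand setting gave the counts is not given in the sources used here, so overlapping genes and near-identical copies are uncertain. Of 14 columns 13 were matched to samples by name. The remaining column is named as an ARID1A knockout of NUGC4, but its name fits no sample, and it was not used. Replicate 2 of the vector group in the labels was not analysed here. Counts were tested with edgeR 4.0.16 in R 4.3.3 (quasi-likelihood, TMM, filterByExpr, Benjamini-Hochberg over all genes tested, adjusted p under 0.05). NUGC4 was fitted on 8 libraries (4 residual degrees of freedom), without the library labelled knockout replicate 2, HepG2 on 4 (2), and the lines together on 12. The scripts were tested on simulated data: of 100 genes changed by 2-fold, 84% were recovered for the overexpression, 56% for the knockout and 60% for the CRISPRi. Kilobases are exon unions of GENCODE 29 transcripts that have a RefSeq mRNA. Positions are GRCh38.

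The 10 genes, the 6 lists and the tests were chosen with earlier results of these data known. Named genes were the 10, up to 4 called genes per list and comparison with the smallest adjusted p at 5 CPM or more, AXIN2, LEF1, LGR5, NKD1 and ARID1A, and the 5 most like CTNNB1. The text names part of them, a choice made after the values were seen, and GLUL, EP300, APC2, TLE3, NOTUM in NUGC4, ZNF10, ZIM3, ULK4, CTNNA1P1 and the read-through row lie outside the rule. Alternatives were DESeq2 1.42.0 size factors and Wald test, no filter, limma-voom (limma 3.58.1), the replicate number as a block, other sets of libraries, and leaving out each library.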

Additional observations from a re-analysis of the deposited data

Results flagged for a closer look

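The change of CDH1 differed between knockout replicate 1 and CRISPRi by a test of the difference itself, 0.55 on the log2 scale (adjusted p = 0.0277, edgeR), from 0.74 ± 0.10 in the knockout library against wild type and 0.18 ± 0.11 under sgRNA1 against vector. The knockout and the vector control are 1 library each. The difference ran from 0.52 to 0.58 when each other library was left out in turn, and its call was lost without wild-type replicate 2 (adjusted p = 0.0698), sgRNA1 replicate 1 (0.127) or sgRNA1 replicate 2 (0.0829). With the library labelled knockout replicate 2 included it was 0.35 (adjusted p = 0.649).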

How the results depend on the processing

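The count of called genes among the 10 stayed at 0 for CRISPRi under every alternative and at 9 between the lines when any library was left out. For the overexpression it was 3 with DESeq2's Wald test and 3 with all libraries of both lines in 1 fit, and 3 to 5 when each library was left out. For the knockout it was 1 with the library labelled knockout replicate 2 included. For the difference it was 2 with the replicate number as a block, 0 with that library and 0 to 1 when each library was left out, and for vector against wild type it was 0 with that library. Over the 10 genes, 87 of the overexpression's values under an alternative, 135 of the knockout's and 139 of the CRISPRi's kept direction and side of the threshold, against 10, 10 and 0 that lost a call and 1, 4 and 0 that gained it.

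Signs that turned belonged to small changes or to that library. With it included, the log2 fold change in the knockout was -0.16 for CTNNB1, 0.19 for LEF1 and 0.34 for MYC, and in the difference -0.14 for CTNNB1 and -0.16 for APC. As the knockout alone it gave -0.42 for CTNNB1, -0.085 for GSK3B, -0.013 for BTRC, -0.23 for FBXW11, -0.041 for FZD4, -0.14 for AFDN, 0.020 for PKP2, -0.12 for DSP, 0.12 for TLE3, 0.65 for LEF1, 0.90 for MYC and 0.25 for ARID1A. For APC the knockout value was 0.0098 with DESeq2 size factors, 0.011 with the Wald test, 0.023 without a filter, 0.023 with both lines, 0.024 with only the compared groups and -0.068 to 0.033 over left-out libraries. Under CRISPRi, APC was 0.0025, 0.0032 and 0.0014 with size factors, the Wald test and both lines, and -0.29 to 0.22 over left-out libraries. GSK3B was 0.0083, 0.0083 and 0.0077 and LEF1 0.0039, 0.0037 and 0.0033 under the same 3 settings, and without a filter 0.0055 and 0.0013. LEF1 ran from -0.057 to 0.028 and BTRC from -0.011 to 0.22 over left-out libraries. The difference for APC ran from -0.23 to 0.28. In vector against wild type, GSK3B was 0.027 and BTRC 0.016 without a filter, and they ran from -0.076 to 0.020 and from -0.10 to 0.033. In HepG2 with the transgene, AXIN1 ran from -0.013 to 0.12, GSK3B from -0.043 to 0.20 and ARID1A from -0.045 to 0.025, with ARID1A at 0.020 in the fit of both lines. CSNK1A1 between the lines was -0.027 with size factors, -0.027 with the Wald test, -0.00083 with only the compared groups and -0.0024 to 0.12 over left-out libraries. The causes were not tested.

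Whether replicate numbers pair the libraries is not settled here. Deviations of same-numbered libraries correlated at -0.022 in HepG2 and, between wild type and sgRNA1, at 0.035 and 0.013 in NUGC4. So few pairs cannot decide it, and wild type against sgRNA1 is not a comparison made here. With the block, APC was 0.129 under CRISPRi and -0.36 in the difference, GSK3B under CRISPRi 0.0081, BTRC with the transgene lost its call (adjusted p = 0.0925) and JUP gained one in the difference (0.40, adjusted p = 0.00327), and CTNND1 in the knockout passed (adjusted p = 0.0417). In vector against wild type the block gave calls to APC (-0.62, adjusted p = 7.28e-06) and CSNK1A1 (0.17, adjusted p = 0.0475).

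Over all genes the overexpression called 3804, against 2192 with the Wald test, 2403 without vector replicate 1 and 1514 with both lines; the knockout 7228, against 4446 with that library. CRISPRi called 1652, against 3949 with the block, 4150 with only the compared groups, 830 and 748 without sgRNA1 replicate 1 or 2 and 0 with that library. The difference called 1706, against 4005 with the block, 2566 without wild-type replicate 3, 815 and 987 without sgRNA1 replicate 1 or 2 and 3 with that library. Vector against wild type called 8355, against 2514 with that library. Size factors moved the median over all genes by at most 0.09 in size (-0.09, between the lines). Leaving out the vector library or knockout replicate 1 leaves no CRISPRi control or no knockout and was not run for those comparisons. In NUGC4, APC and BTRC had the lowest levels of the 10 per kilobase, and what depth limits there was not tested.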

Other observations

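CTNNA1P1, a pseudogene copy of CTNNA1 that was singled out after its values were seen, went against CTNNA1 in NUGC4. It stood at 9.93, 9.82, 9.92 and 8.67 CPM in wild type, 7.91 CPM in the vector library, 6.44 CPM in the library labelled knockout replicate 2, 1.56 CPM in knockout replicate 1 and 3.19 and 2.76 CPM under sgRNA1. The log2 fold change was -2.65 ± 0.30 in the knockout library (adjusted p = 1.44e-06, edgeR) and -1.42 ± 0.25 under sgRNA1 (adjusted p = 0.000856), and in HepG2 it was 0 in 3 of the 4 libraries. It held at most 3.43% as many counts as CTNNA1 in any library, and how reads shared by the copies were counted is not given in the sources used here. When the knockout group took in the library labelled knockout replicate 2, the adjusted p was 0.0719 in the knockout and 0.635 under sgRNA1.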
